A study of Mus musculus with 12 samples.

Results

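The 10 genes described here are transcription factors and stress effectors of the ATF4 pathway in the mammary gland of pregnant mice. They were taken by symbol from the protein-coding tables: Atf4, Atf5, Atf3, Ddit3, Cebpg, Cebpb, Trib3, Chac1, Sesn2 and Ddit4. They are 10 of 21956 genes in those tables, and all 10 were among the 11809 genes whose FPKM averaged 1 or more and that were tested. FPKM are sequenced fragments scaled by transcript length and by library size, summed here over the transcripts of a gene.

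The mice were of the outbred ICR stock, and RNA was taken from the inguinal mammary gland (number 4) on pregnancy day 17. There were 3 groups with 4 libraries each. From the start of pregnancy, Met mice ate food without methionine and were injected intraperitoneally with methionine at 35% of the amount that the control diet holds. Met-Met mice were handled like Met mice, but 25% of the methionine they were injected with was given as methionyl-methionine, a dipeptide of joined methionine residues. For the Control group the labels name only a control diet, so methionine amount, diet and injection cannot be told apart in comparisons with Control. Whether the 4 libraries of a group are 4 mice is not stated in the labels, and the p-values then describe no more than the spread among these samples, which may be technical. Both comparisons with Control use the same 4 Control libraries, so they are not independent of each other.

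ATF4 is a basic leucine zipper factor whose protein is made mainly when the translation factor eIF2 is phosphorylated, for example by the kinase GCN2 when amino acids run short. It then pairs with C/EBP family partners and switches on genes for amino acid synthesis, amino acid uptake and tRNA charging. The same program includes feedback and damage genes such as Trib3, Chac1 and Ddit3, and brakes on the growth kinase complex mTORC1 such as Sesn2 and Ddit4. Much of the control of ATF4 lies in translation, which these RNA values do not measure.

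The libraries differed beyond their groups. B cell markers (10 genes) summed to 15.2 to 76.2 scaled FPKM in 6 libraries (Control 1, 2 and 3, Met 4, Met-Met 1, Met-Met 3). In the other 6 libraries the sums were 0.487 to 2.34. Skeletal muscle markers (8 genes) summed to 267 in Met 2 and to at most 6.39 elsewhere. The noncoding gene Gm26917 was listed at 9013 to 9305 FPKM in Met 3, Met 4 and Met-Met 2 and at 72.3 to 99.2 FPKM in the other 9. Adipocyte markers (11 genes) averaged 6.14 to 6.48 log2 units in Control, 5.07 to 5.30 in Met and 4.29 to 5.67 in Met-Met. On this measure all Control libraries stood above all others. Summed, these markers stood at 2165 to 2577 scaled FPKM in Control, 1667 to 2244 in Met and 849 to 1977 in Met-Met. The sums of Control and Met overlapped. The 7 markers of mammary epithelium averaged at least 9.24 log2 units in every library. Their summed level was 35279.8 to 87410.0 scaled FPKM in Control, 95361 to 151228 in Met and 56972 to 86018 in Met-Met, so that every Met library stood above all others, as for Cebpg, Trib3 and Ddit4 below. Their mean log2 levels overlapped between the groups, and the part of epithelial content in the results was not tested. Read numbers are unknown, since only FPKM were deposited. Libraries were scaled to a common median gene. Without this scaling the median log2 fold change of all genes was -0.25 for Met against Control, and 352 genes were called higher and 4299 lower, against 1570 and 1776 with it. Changes below are therefore relative to the median gene. In bulk tissue, fewer cells of a type and less RNA per cell cannot be told apart.

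Before the values, the promoter letters of the members were read from RefSeq (GRCm38.p6), from 250 bases before to 50 bases after each gene start. All 10 members had a promoter there, 11 promoters in all. The letters TGATGNAA, a form of the composite site that ATF4 binds together with a C/EBP partner, were searched on both strands and lay in 3 of the 10 members, Atf3, Trib3 and Chac1. They lay in 3.97% of all 32851 promoters in the table. The palindrome TGACGTCA, bound by many factors of the ATF and CREB families, was in 0 of the 10 and in 1.79% of all promoters. The 3 member matches are shown in windows of 30 bases, read along the strand that carries the motif, with its letters in capitals. The window of Asns, which encodes asparagine synthetase and whose human counterpart holds a known amino acid response site of this type, is shown for comparison.
Atf3, chr1:191183425-191183454, plus strand: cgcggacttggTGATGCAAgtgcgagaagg
Trib3, chr2:152344028-152344057, plus strand: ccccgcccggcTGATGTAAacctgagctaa
Chac1, chr2:119351038-119351067, minus strand: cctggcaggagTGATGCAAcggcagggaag
Asns, chr6:7693214-7693243, minus strand: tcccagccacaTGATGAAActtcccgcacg
Counted from the RefSeq start, the match began at position -110 in Atf3, at 15 in Trib3, at -193 in Chac1 and at -23 in Asns. In the 3 members it ran against the direction of the gene. For Trib3 and Chac1, whose fold changes in Met were the highest of the members on the log2 scale used here, the 250 bases before the start follow, read along the gene. In Chac1 the capitals mark the match as it reads on the gene strand, and the Trib3 match lies after the start and so outside its stretch.
Chac1, chr2:119350992-119351241, plus strand: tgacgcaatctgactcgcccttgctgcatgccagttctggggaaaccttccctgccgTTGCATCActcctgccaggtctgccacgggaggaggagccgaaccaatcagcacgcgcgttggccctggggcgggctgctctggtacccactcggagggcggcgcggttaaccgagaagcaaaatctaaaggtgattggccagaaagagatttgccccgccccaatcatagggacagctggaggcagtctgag
Trib3, chr2:152344061-152344310, minus strand: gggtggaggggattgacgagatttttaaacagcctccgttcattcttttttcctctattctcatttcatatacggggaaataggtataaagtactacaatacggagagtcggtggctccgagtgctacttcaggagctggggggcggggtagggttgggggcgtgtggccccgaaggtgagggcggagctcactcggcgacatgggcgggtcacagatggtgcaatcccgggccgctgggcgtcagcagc
A match describes these letters only and is not a measured binding site.

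In Met against Control, 7 of the 10 members rose and 0 fell: Atf4, Atf5, Cebpg, Cebpb, Trib3, Chac1 and Ddit4. A gene was called when limma gave a Benjamini-Hochberg adjusted p under 0.05 across the 11809 genes, and by that rule 13.3% of all genes rose and 15.0% fell. At an unadjusted p under 0.05, 8 members were higher and 0 lower. No share of all genes at an unadjusted p is given, here or below, so such counts stand without that comparison. For 5 members every Met library lay above every Control library, which held for 13.3% of all genes. The median log2 fold change of all 10 members was 0.97, against 0.01 for all genes tested.

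In Met-Met against Control only Atf5 rose of the 10 members, where 10.6% of all genes rose and 9.91% fell, and 3 members were higher at an unadjusted p under 0.05. All Met-Met libraries lay above all Control libraries for 3 members, Atf5, Chac1 and Sesn2, against 14.6% of all genes. The median log2 fold change of the members was 0.35, against -0.01 for all genes.

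Between the 2 methionine-injected groups, 3 of the 10 members were lower in Met-Met than in Met, Cebpg, Trib3 and Ddit4, and 0 were higher. Of all genes 5.93% were called lower and 5.90% higher. At an unadjusted p under 0.05, 5 members were lower and 0 higher. For the same 3 members every Met-Met library lay under every Met library, which held for 7.99% of all genes. The median log2 fold change of the members was -0.52, against 0.00 for all genes.

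These counts depended on which libraries and covariates entered. The adipocyte marker mean was higher in all Control libraries than in all others. As a covariate it can therefore hardly be told apart from group in comparisons with Control, here and below. The part of adipocytes in the results was not tested. With this mean as a covariate, 1 member (Atf5) was called in Met against Control and 0 in Met-Met against Control. At an unadjusted p under 0.05 these counts were 6 and 2. In Met-Met against Met 3 members were called lower. Of all genes, 67 were then called higher and 58 lower in Met against Control, and 10 and 4 in Met-Met against Control. In Met-Met against Met 679 of all genes were called lower. With the B cell marker mean as a covariate the counts were 4, 2 and 3. Of all genes, 618 then rose in Met, 665 rose in Met-Met, and 700 were lower in Met-Met than in Met. Without the 6 libraries with lymphocyte markers, which leaves Control 4 alone and assumes that it varies like the other groups, limma called 0 members in either comparison with Control. There 5 and 1 members were higher at an unadjusted p under 0.05, and of all genes 5 were called higher and 3 lower in Met against Control. Without the 3 libraries with high Gm26917, which leaves Met 1 and Met 2 in that group, the counts were 5, 1 and 1. Of all genes, 1178 then rose in Met, 1048 rose in Met-Met, and 516 were lower in Met-Met than in Met. Without Control 1 alone the count in Met against Control was 4, and 1002 of all genes rose. Without Control 4 alone or Met 4 alone, 2 members rose in Met-Met against Control, where 1119 and 1424 of all genes rose.

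**Figure D1:**
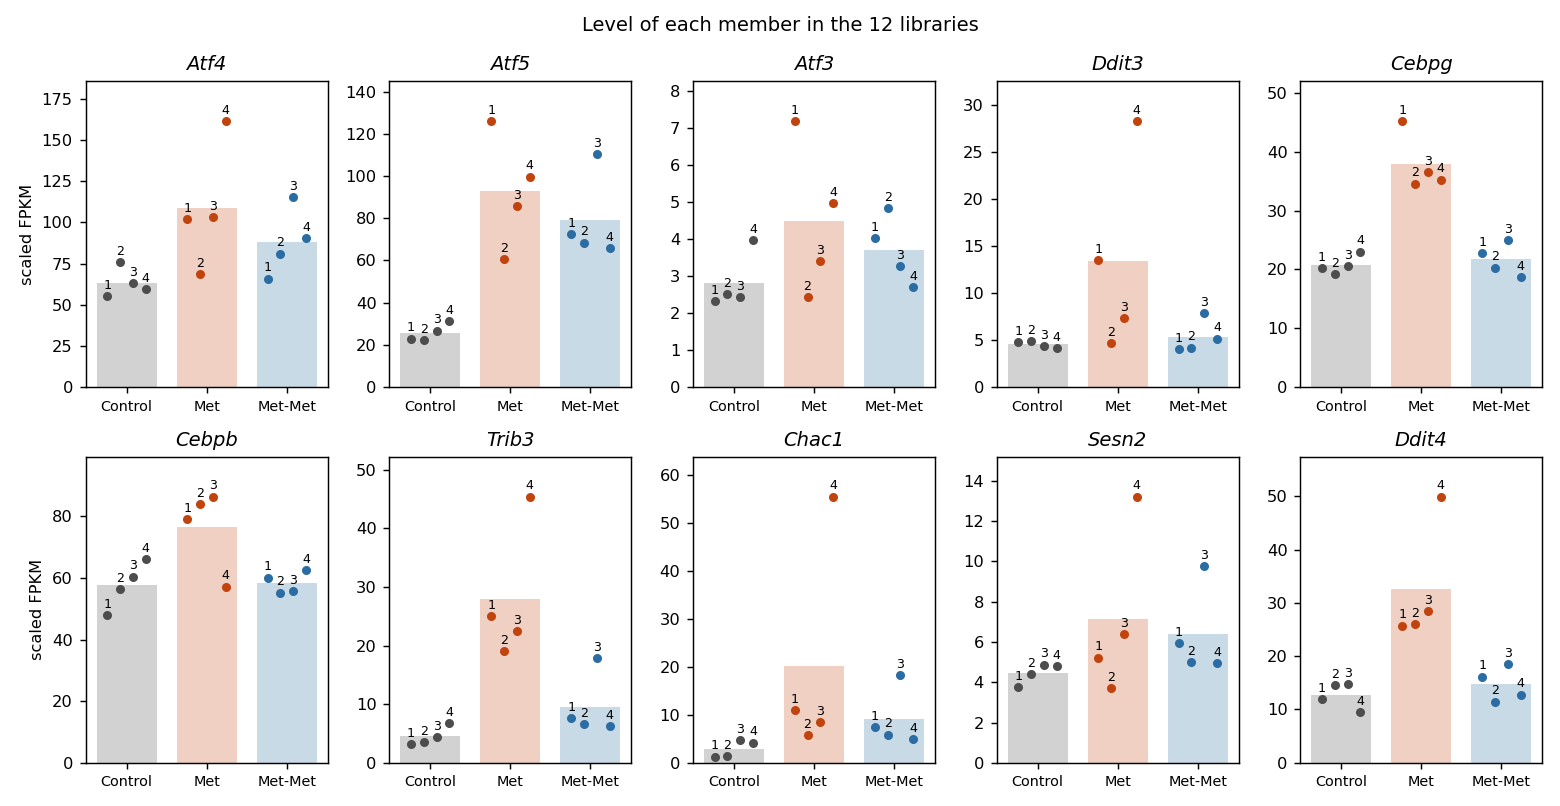
Level of each of the 10 genes in scaled FPKM (vertical axis, a separate linear scale from 0 for each gene) in the 12 libraries; points are libraries labelled with their replicate number and bars are group means, n = 4. Atf5 stands higher in all Met and Met-Met libraries than in all Control libraries, whereas Cebpg, Trib3 and Ddit4 stand higher in Met than in both other groups.

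Atf4 was the most abundant member in every group. It stood at 55.2, 75.9, 63.2 and 59.4 scaled FPKM in Control 1 to 4, at 102, 68.7, 103 and 162 in Met 1 to 4, and at 65.8, 81.0, 115 and 90.4 in Met-Met 1 to 4. Met 2 lay within the Control range and the other 3 Met libraries above it, and Met-Met 1 lay within it while the other 3 Met-Met libraries lay above. The means were 63.4 ± 8.9 (SD, n = 4), 109 ± 38.6 and 88.1 ± 20.7 scaled FPKM. Atf4 rose by 0.71 on the log2 scale in Met against Control (SE 0.23, adjusted p = 0.0360). Its difference in Met-Met against Control was 0.45 (95% interval -0.05 to 0.95, adjusted p = 0.185), and in Met-Met against Met it was -0.27 (-0.76 to 0.23, adjusted p = 0.478). The Atf4 call was made in 11 of 27 alternatives. It was lost without any of Control 1, 3 or 4 or Met 1, 3 or 4, with adjusted p between 0.0673 and 0.0957 and a fold change of 0.50 without Met 4.

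Atf5, a close relative of ATF4 that is likewise controlled through upstream reading frames and acts in mitochondrial stress, was higher in both injected groups. It stood at 23.0, 22.3, 26.8 and 31.1 scaled FPKM in Control, at 126, 60.6, 85.6 and 99.8 in Met, and at 72.3, 68.4, 110.5 and 65.8 in Met-Met, in replicate order. Every Met and Met-Met library lay above every Control library, and the Met and Met-Met ranges overlapped. Atf5 rose by 1.77 on the log2 scale in Met against Control (SE 0.22, adjusted p = 3.22e-04) and by 1.56 in Met-Met against Control (SE 0.22, adjusted p = 0.00111). The difference between Met-Met and Met was -0.21 (95% interval -0.68 to 0.26, adjusted p = 0.560). Both calls held when any library was left out. They were lost without the 6 libraries with lymphocyte markers, at adjusted p = 0.149 and 0.342, and the second was also lost with the adipocyte covariate, at 0.136.

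The tables hold 3 transcripts of Atf5. ENSMUST00000047356 carried 99.8% of the summed level in Control, 93.9% in Met and 94.4% in Met-Met, and ENSMUST00000209072 was listed at 0 throughout. The other, ENSMUST00000107893, was listed at 0.0331 to 0.0625 scaled FPKM in Control. It was at 7.57, 0.0106, 6.15 and 8.96 in Met 1 to 4 and at 7.01, 2.31, 5.24 and 3.20 in Met-Met 1 to 4. It was thus above the Control range in 7 of the 8 libraries from injected mice and under it in Met 2. These are the authors' estimates of how reads divide between overlapping transcripts, with no measure of their error, and were not tested.

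**Figure D2:**
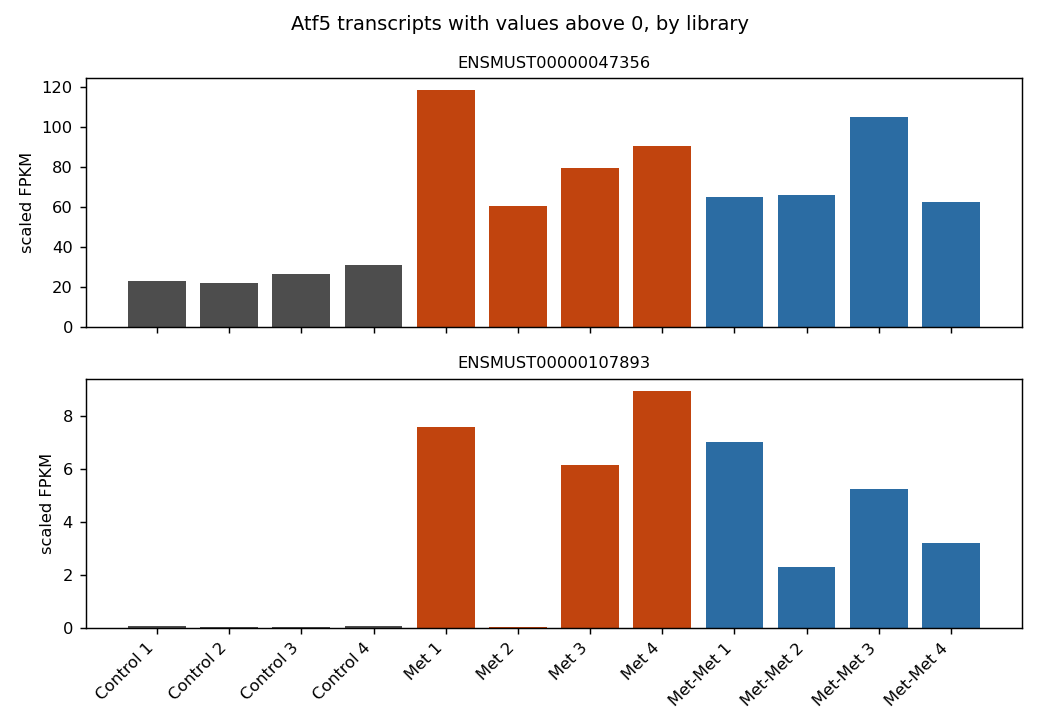
Level in scaled FPKM (vertical axes, linear from 0) of the 2 Atf5 transcripts with values above 0 in each of the 12 libraries; each bar is 1 library, with Control in grey, Met in orange and Met-Met in blue. The upper transcript is present in all libraries, whereas the lower one is near 0 in the Control libraries and Met 2 and between 2.31 and 8.96 in the other 7.

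Atf3, a stress-induced factor of the same class that mostly represses its targets, was the least abundant member. It ranged from 2.33 to 3.97 scaled FPKM in Control, from 2.44 to 7.20 in Met and from 2.71 to 4.83 in Met-Met. The 3 ranges overlapped, and Met 1 was highest. The log2 differences were 0.47 (95% interval -0.06 to 1.00, adjusted p = 0.167) for Met against Control, 0.30 (-0.23 to 0.83, adjusted p = 0.399) for Met-Met against Control and -0.17 (-0.70 to 0.36, adjusted p = 0.686) for Met-Met against Met. Without Met 2 the first of these was called, at adjusted p = 0.0483.

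Ddit3 encodes CHOP, a factor that ATF4 induces and that is linked to cell death under lasting stress. It stood at 4.80, 4.90, 4.32 and 4.17 scaled FPKM in Control, at 13.5, 4.68, 7.33 and 28.3 in Met, and at 4.06, 4.19, 7.89 and 5.16 in Met-Met. The Control libraries were close together, Met 2 lay among them, and Met 1, 3 and 4 lay above, with Met 4 far the highest. The difference between Met and Control was 1.10 on the log2 scale (95% interval 0.25 to 1.95) and missed the threshold at adjusted p = 0.0527. That between Met-Met and Met was -0.95 (-1.80 to -0.10, adjusted p = 0.134), and that between Met-Met and Control was 0.15 (-0.70 to 1.00, adjusted p = 0.817). Met 2 was the lowest Met library for Ddit3. Without it, Ddit3 was called higher in Met than in Control (1.46, adjusted p = 0.0118). It was then also called lower in Met-Met than in Met (-1.31, adjusted p = 0.0417). Met 2 carried the skeletal muscle markers too, and their part here was not tested. Without Met 4 the difference between Met and Control was 0.67 and not called.

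Cebpg encodes a short C/EBP protein that pairs with ATF4, and it separated Met from both other groups. It stood at 20.2, 19.2, 20.5 and 23.0 scaled FPKM in Control, at 45.2, 34.6, 36.5 and 35.2 in Met, and at 22.8, 20.3, 24.9 and 18.7 in Met-Met. All Met libraries lay above all others, and Met-Met overlapped Control. Cebpg rose by 0.83 on the log2 scale in Met against Control (SE 0.11, adjusted p = 4.40e-04) and fell by 0.78 in Met-Met against Met (SE 0.11, adjusted p = 0.00224). The difference between Met-Met and Control was 0.06 (95% interval -0.18 to 0.29, adjusted p = 0.757). The fall in Met-Met against Met was called in all 27 alternatives. The rise in Met was lost with the adipocyte covariate, at adjusted p = 0.0834, and without the 6 libraries with lymphocyte markers, at 0.154.

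Cebpb encodes C/EBP beta, which the mouse mammary epithelium needs to form milk-secreting alveoli. It stood at 47.9, 56.3, 60.4 and 66.2 scaled FPKM in Control, at 79.0, 83.9, 86.4 and 57.2 in Met, and at 60.1, 55.2, 55.6 and 62.5 in Met-Met. Met 1, 2 and 3 lay above all other libraries, whereas Met 4, the highest Met library for 6 of the 10 members, lay within the Control range. Cebpb rose by 0.39 on the log2 scale in Met against Control (SE 0.13, adjusted p = 0.0439). The differences were 0.02 for Met-Met against Control (95% interval -0.27 to 0.31, adjusted p = 0.923) and -0.37 for Met-Met against Met (-0.66 to -0.08, adjusted p = 0.0902). The call in Met was made in 8 of 27 alternatives. It was lost without any of Control 1, 2 or 3 or Met 1, 2 or 3, with adjusted p from 0.0643 to 0.131, and without any Met-Met library, with adjusted p from 0.0532 to 0.0572. With FPKM as deposited its fold change was 0.09. Without Met 4, Cebpb was called lower in Met-Met than in Met, by -0.50 (adjusted p = 0.00822).

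Trib3 encodes a pseudokinase that binds AKT and also ATF4 and CHOP. It stood at 3.16, 3.58, 4.41 and 6.83 scaled FPKM in Control, at 24.9, 19.1, 22.5 and 45.4 in Met, and at 7.57, 6.57, 17.8 and 6.30 in Met-Met. Every Met library lay above every other library, and in Met-Met only replicate 3 came near them. The means were 4.49 ± 1.64, 28.0 ± 11.9 and 9.57 ± 5.54 scaled FPKM (SD, n = 4). Trib3 rose by 2.36 on the log2 scale in Met against Control (SE 0.33, adjusted p = 6.39e-04) and fell by 1.498 in Met-Met against Met (SE 0.33, adjusted p = 0.0148). In Met-Met against Control the difference was 0.87 (95% interval 0.15 to 1.59, adjusted p = 0.0842), and it was called without Control 4, at adjusted p = 0.0490. The rise in Met was lost with the adipocyte covariate, at adjusted p = 0.0562, and without the 6 libraries with lymphocyte markers, at 0.0735. The fall in Met-Met against Met was lost without the 3 libraries with high Gm26917 (-1.11, adjusted p = 0.114).

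Chac1 encodes a gamma-glutamylcyclotransferase that breaks down glutathione, a cysteine-containing antioxidant. It stood at 1.28, 1.37, 4.72 and 4.21 scaled FPKM in Control, at 10.98, 5.71, 8.54 and 55.4 in Met, and at 7.43, 5.88, 18.3 and 4.92 in Met-Met. Every Met and Met-Met library lay above every Control library, and Met 4 exceeded the next highest Met library about 5-fold. Chac1 rose by 2.02 on the log2 scale in Met against Control (SE 0.61, adjusted p = 0.0282). The difference was 1.34 in Met-Met against Control (95% interval 0.02 to 2.66, adjusted p = 0.137) and -0.68 in Met-Met against Met (-1.995 to 0.64, adjusted p = 0.497). Without Met 4 the rise in Met was 1.36 and still called, the difference of Met-Met against Control was called at adjusted p = 0.0356, and that of Met-Met against Met was -0.02. The rise in Met was called in 21 of 27 alternatives. Among those that lost it were the fits without Control 1 or Control 2, at adjusted p = 0.0803 and 0.0792. It was also lost without the 3 libraries with high Gm26917, at 0.108, and with the adipocyte covariate.

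Sesn2 encodes a leucine-binding protein that restrains mTORC1. It stood at 3.78, 4.42, 4.88 and 4.81 scaled FPKM in Control, at 5.23, 3.72, 6.40 and 13.2 in Met, and at 5.94, 4.997, 9.78 and 4.94 in Met-Met. Met-Met lay narrowly above Control in every library, Met 2 lay lowest of the 12 and Met 4 highest. The log2 differences were 0.45 (95% interval -0.17 to 1.08, adjusted p = 0.265) in Met against Control, 0.40 (-0.23 to 1.02, adjusted p = 0.349) in Met-Met against Control and -0.05 (-0.68 to 0.57, adjusted p = 0.925) in Met-Met against Met. None of the 3 was called in any alternative.

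Ddit4 encodes REDD1, another restraint on mTORC1, which acts through the TSC complex and is also induced by glucocorticoids and low oxygen. It stood at 11.9, 14.6, 14.8 and 9.56 scaled FPKM in Control, at 25.7, 26.0, 28.5 and 49.9 in Met, and at 16.2, 11.5, 18.6 and 12.8 in Met-Met. As for Cebpg and Trib3, all Met libraries lay above all others and Met-Met overlapped Control. Ddit4 rose by 1.25 on the log2 scale in Met against Control (SE 0.22, adjusted p = 0.00194) and fell by 1.06 in Met-Met against Met (SE 0.22, adjusted p = 0.0109). The difference between Met-Met and Control was 0.20 (95% interval -0.28 to 0.67, adjusted p = 0.559). The fall was lost without the 3 libraries with high Gm26917 (-0.69, adjusted p = 0.0652), and the rise with the adipocyte covariate, at adjusted p = 0.0837, and without the 6 libraries with lymphocyte markers, at 0.0618.

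**Figure D3:**
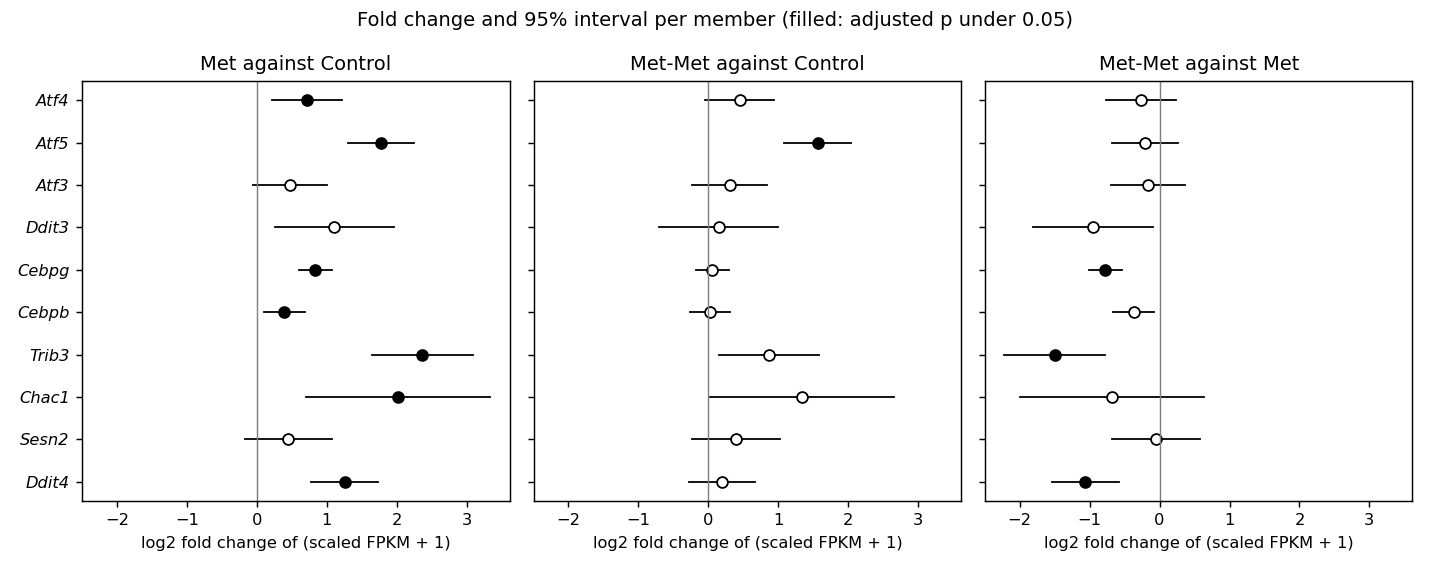
Log2 fold change of scaled FPKM plus 1 for the 10 genes in the 3 comparisons (horizontal axis), with 95% intervals from limma, n = 4 libraries per group; filled points have an adjusted p under 0.05. In Met against Control 7 points are filled, in Met-Met against Control only Atf5, and in Met-Met against Met the 3 genes Cebpg, Trib3 and Ddit4 to the left of 0.

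FPKM are per length, so levels can be set beside each other. In Control the order was Atf4, Cebpb, Atf5, Cebpg, Ddit4, Ddit3, Trib3, Sesn2, Chac1 and Atf3. Neighbouring ranges overlapped except between Cebpb and Atf5, between Cebpg and Ddit4 and between Ddit4 and Ddit3. In Met and in Met-Met, Atf5 stood second, above Cebpb, and in Met the ranges of these genes overlapped. Trib3 and Chac1 stood below Ddit3 in Control and above it in both other groups, with overlapping ranges.

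Divided by Atf4 in the same library, Trib3 was at 0.0472 to 0.115 in Control, 0.217 to 0.281 in Met and 0.0697 to 0.155 in Met-Met. The Met range lay above both others, so that Trib3 stood higher in Met also relative to Atf4. The ratio of Atf5 to Atf4 was 0.415 ± 0.094 in Control, 0.891 ± 0.257 in Met and 0.908 ± 0.159 in Met-Met (SD, n = 4). The ratio of Sesn2 to Atf4 was 0.0712 ± 0.0102, 0.0623 ± 0.0138 and 0.0729 ± 0.0174, with overlapping ranges. These ratios are descriptions and were not tested.

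Within groups, the members shared their high and low libraries. In Met-Met, replicate 3 was the highest for 8 of the 10 members, whereas it was the highest for 27.3% of all genes tested. In Met, replicate 4 was the highest for 6 of 10 (31.4% of all genes) and replicate 2 the lowest for 8 of 10 (27.4% of all genes). In Control, replicate 4 was the highest for 5 of 10 (30.7% of all genes) and replicate 1 the lowest for 6 of 10 (22.3% of all genes). Met 4 and Met-Met 3 both carried B cell markers, with sums of 16.3 and 15.3 scaled FPKM. Met-Met 1, with a sum of 15.2, was the highest Met-Met library for 0 of 10 members. The part of these cells in the pattern within groups was not tested. The summed level of the 10 members was 173.5 to 213 scaled FPKM in Control, 309 to 551 in Met and 263 to 382 in Met-Met, without overlap between Control and the other groups.

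**Figure D4:**
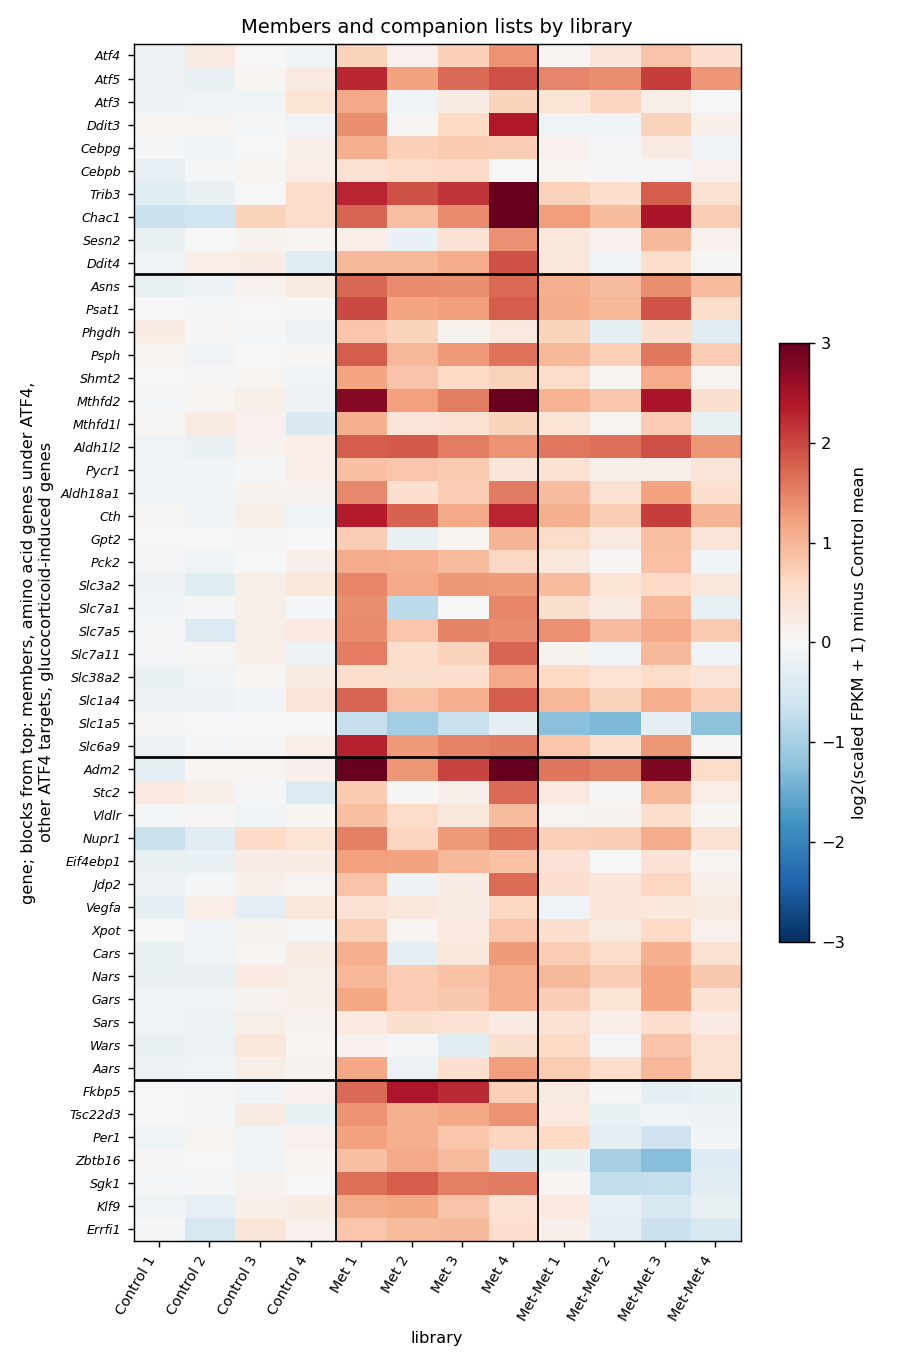
Log2 of scaled FPKM plus 1 minus the Control mean (colour, red above and blue under the Control mean; values past the ends of the scale take the end colour) in the 12 libraries (columns) for the members, amino acid genes under ATF4, other ATF4 targets and glucocorticoid-induced genes (row blocks from the top). Met-Met 3 is the highest Met-Met library for 8 of 10 members, 16 of 21 amino acid genes and 13 of 14 other targets, and Met 4 the highest Met library for 6, 8 and 10 of them, whereas in the lowest block Met-Met 1 is the highest Met-Met library for 7 of 7.

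The genes whose profiles over the 12 libraries lay nearest to those of Trib3, Chac1 and Atf5 were sought among 11799 genes, by the root mean square difference in log2 units after each gene's own mean was removed. Nearest to Trib3 were Mthfd2 (0.45), which encodes a mitochondrial folate enzyme, Slc6a9 (0.49), which encodes a glycine transporter, and Tchh (0.49), which encodes a hair follicle protein. Trib3 itself varied by 1.08 on this measure. Nearest to Chac1, which varied by 1.20, were Mthfd2 (0.56), Adm2 (0.62), a peptide hormone gene, and again Tchh (0.68). Atf5 varied by 0.85 and lay nearest to Psat1 (0.26) and Psph (0.26), both of serine synthesis, and Asns (0.26). Among the members themselves, the profile nearest to Trib3 was that of Chac1 (0.59), and the one nearest to Atf5 was that of Atf4 (0.59).

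Mthfd2 stood at 2.84 to 3.90 scaled FPKM in Control, at 27.8, 9.16, 11.7 and 32.7 in Met and at 8.01, 6.66, 22.8 and 5.10 in Met-Met. Its ranges in both injected groups lay above Control and overlapped each other. Tchh stood at 0.917 to 1.85 scaled FPKM in Control, at 8.53, 4.78, 4.48 and 10.48 in Met and at 2.67 to 4.04 in Met-Met, with no overlap between the groups. The nearest genes were chosen for their likeness over the same 12 libraries, so their differences between the groups are a description. No test of them is given here. Asns is also in a list below, and its tests are given there as a gene of that list. Skin keratinocyte markers (7 genes), some of them shared with hair, summed to 59.9 scaled FPKM in Met 2 and to 6.39 to 22.1 elsewhere, and their part in the values of Tchh was not tested.

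The upstream kinases, phosphatase subunits and eIF2B subunits of the pathway stand before ATF4. Of 12 tested, 2 rose in Met, 2 rose in Met-Met and 1 was higher in Met-Met than in Met, and 0 were called lower. Of all genes, 13.3% rose and 15.0% fell in Met, and 10.6% rose and 9.91% fell in Met-Met. Between Met-Met and Met, 5.90% were higher and 5.93% lower. These shares belong beside the counts of the lists below as well. Their median log2 fold changes were 0.15, 0.28 and 0.05. Eif2b5, a catalytic subunit of eIF2B, rose by 0.35 in Met (adjusted p = 0.00239) and by 0.39 in Met-Met (adjusted p = 0.00217). Eif2ak2, which encodes the eIF2 kinase PKR that double-stranded RNA activates, rose by 0.78 in Met-Met (adjusted p = 0.00506) and was higher in Met-Met than in Met by 0.83 (adjusted p = 0.00651). Ppp1r15b, which directs a phosphatase to eIF2, rose by 0.40 in Met (adjusted p = 0.0271). Eif2ak4, which encodes GCN2, stood at 5.62 ± 0.27, 5.16 ± 0.47 and 5.46 ± 0.78 scaled FPKM in Control, Met and Met-Met and was called in no comparison. The call of Ppp1r15b was lost without any of Control 1, Control 4, Met 1, Met 3 or Met 4, at adjusted p from 0.0578 to 0.077, so that 1 gene was left in Met.

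Of 21 amino acid enzymes and transporters under ATF4 tested, 17 rose and 1 fell in Met, 10 rose and 1 fell in Met-Met, and 5 were lower and 0 higher in Met-Met than in Met. The medians were 1.12, 0.57 and -0.41. Asns stood at 26.6 ± 4.5 scaled FPKM in Control, 79.9 ± 9.9 in Met and 57.5 ± 9.4 in Met-Met (SD, n = 4), rose in both groups (1.56, adjusted p = 5.95e-05, and 1.09, adjusted p = 7.62e-04) and was lower in Met-Met than in Met (-0.47, adjusted p = 0.0488). Aldh1l2, a mitochondrial folate enzyme, rose alike, by 1.63 and 1.62. Slc3a2, the common chain of several amino acid exchangers, rose by 1.298 in Met and 0.57 in Met-Met and was lower in Met-Met than in Met by -0.73 (adjusted p = 0.0172). The last call of Asns was made in 7 of 27 alternatives, and was lost without any library other than Control 4 or Met-Met 3. For Slc3a2 the call in Met-Met against Control was lost without Control 1, Control 2, Met-Met 1 or Met-Met 3, and that against Met without Met 1 or Met-Met 4. The gene that fell was Slc1a5, a glutamine transporter, at -0.66 in Met and -1.02 in Met-Met. Its call in Met was lost without any Control library or without Met 1, 2 or 3. The count of 5 lower in Met-Met than in Met became 0 without Met 1 or Met-Met 4, 1 without Met 3 or Met-Met 2, 2 without Control 1, 2 or 3 or Met-Met 1, 3 without Met 2 and 10 without Met-Met 3. With the adipocyte covariate 2 rose in Met and 0 in Met-Met, and without the 6 libraries with lymphocyte markers 0 rose in either.

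Of 14 other ATF4 targets tested, 8 rose in Met and 4 in Met-Met, 2 were lower in Met-Met than in Met and 0 changed the other way in any comparison. The medians were 0.67, 0.44 and -0.22. Fgf21 and Gdf15 were under the minimum level, with means of 0.781 and 0.168 FPKM. The tRNA charging enzyme Nars rose by 0.93 in Met (adjusted p = 7.24e-04) and by 0.92 in Met-Met (adjusted p = 0.00135), and Gars rose by 0.95 and 0.69. Eif4ebp1, a brake on cap-dependent translation, stood at 16.8 ± 3.1, 36.3 ± 4.3 and 19.9 ± 3.3 scaled FPKM. It rose by 1.08 in Met (adjusted p = 5.27e-04) and was lower in Met-Met than in Met by -0.84 (adjusted p = 0.00524), as Cebpg, Trib3 and Ddit4 were. The count of 4 in Met-Met became 2 without any of Control 1, Control 2, Met-Met 1 or Met-Met 3, and the count of 2 between Met-Met and Met became 1 without any library other than Met 3 or Met-Met 3. With FPKM as deposited the counts in Met and Met-Met were 5 and 2, and with the adipocyte covariate or without the 6 libraries with lymphocyte markers both were 0.

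The list of the ATF6 and XBP1 branch holds genes from the arms of the endoplasmic reticulum stress response that raise chaperones. Of 20 tested, 11 rose in Met and 12 in Met-Met, with medians of 0.54 and 0.86. In Met-Met against Met limma called 0, and at an unadjusted p under 0.05 it gave 4 higher and 2 lower, with a median of 0.23. Sdf2l1, an endoplasmic reticulum chaperone cofactor, stood at 14.5 ± 4.3, 50.2 ± 15.0 and 49.9 ± 8.3 scaled FPKM and rose by 1.72 and 1.74 (adjusted p = 4.08e-04 and 6.93e-04). Pdia6, a disulfide isomerase, rose by 0.90 and 1.01, and the lectin chaperone Canx by 0.53 and 0.64. Without Met 4, which was the highest Met library for 15 of these 20 genes, 7 were called higher in Met-Met than in Met. Of all genes, 1079 were then higher and 1237 lower in Met-Met than in Met, against 697 and 700 with it. In Met against Control, 1833 of all genes then fell, against 1776. These counts belong beside the list counts without Met 4 below as well. With FPKM as deposited 4 rose and 1 fell in Met and 10 rose in Met-Met, and with the adipocyte covariate 0 rose in either.

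Of 22 other factors of the leucine zipper class tested, 4 rose and 1 fell in Met, and 1 rose and 3 fell in Met-Met. Between Met-Met and Met, 5 were lower in Met-Met. Of all genes, 13.3% rose and 15.0% fell in Met, 10.6% rose and 9.91% fell in Met-Met, and 5.93% were lower in Met-Met than in Met. Nfil3 stood at 3.15 ± 1.04, 10.3 ± 0.8 and 4.41 ± 0.82 scaled FPKM. It rose by 1.48 in Met (adjusted p = 1.82e-04) and was lower in Met-Met than in Met by -1.08 (adjusted p = 0.00289). Hlf rose by 0.51 in Met and 0.57 in Met-Met, and Mafg rose by 0.37 in Met and was lower in Met-Met than in Met by -0.53 (adjusted p = 0.0109). The call of Mafg in Met was lost, and the count of 4 became 2, without any of Control 1 or 2 or Met 1, 2 or 3, and the count of 5 between Met-Met and Met was 8 without Met 4 and 3 without Met 1, 2 or 3 or Met-Met 2 or 4. The 1 that fell in Met was lost without Control 1, 2 or 3, Met-Met 1 or Met-Met 3, and the 1 that rose in Met-Met became 2 without Control 4 or Met 4.

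Of 5 paralogues of the effectors tested in Met against Control, 1 rose and 2 fell. Trib2 fell by 0.81 (adjusted p = 0.00292) and Trib1 fell by 0.37 (adjusted p = 0.0127). Trib1 was higher in Met-Met than in Met by 0.40 (adjusted p = 0.0198), a call lost without Met 2, Met 3 or Met-Met 4 at adjusted p from 0.0501 to 0.0567. Chac2, which like Chac1 breaks down glutathione, rose by 0.50 in Met (adjusted p = 0.0347), a call lost without any of Control 1, 3 or 4 or Met 1, 3 or 4.

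Around Sesn2 and Ddit4, of 16 tested genes of mTORC1 control 2 rose and 1 fell in Met, and 2 rose in Met-Met. In Met-Met against Met 1 was higher and 1 lower. Of all genes, 13.3% rose and 15.0% fell in Met, and 10.6% rose in Met-Met. Between Met-Met and Met, 5.90% were higher and 5.93% lower. Rheb, the small GTPase that activates mTORC1, rose by 0.57 in Met (adjusted p = 3.41e-04) and by 0.45 in Met-Met (adjusted p = 0.00200). Sec13 rose by 0.54 and 0.82. Depdc5, a subunit of the GATOR1 complex that inhibits mTORC1, fell by 0.33 in Met (adjusted p = 0.0106) and was higher in Met-Met than in Met by 0.42 (adjusted p = 0.00752). The count of 1 lower in Met-Met than in Met was 3 without Met 4 and 0 without any other library except Control 3 and Met 2.

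Several members answer to other signals too, and lists for these were described beside them. Of 7 glucocorticoid-induced genes, 6 rose in Met, 0 were called in Met-Met against Control (limma; at an unadjusted p under 0.05, 2 were lower) and 7 were lower in Met-Met than in Met. The medians were 0.94, -0.16 and -1.27. Sgk1, a kinase gene, stood at 16.4 ± 1.0, 53.3 ± 5.4 and 12.4 ± 3.6 scaled FPKM, and was lower in Met-Met than in Met by -2.05 (adjusted p = 1.24e-04). Tsc22d3 and Fkbp5, which encode a glucocorticoid-induced zipper protein and a cochaperone of the receptor, rose by 1.23 and 1.77 in Met and were lower in Met-Met than in Met by -1.27 and -1.84. Ddit4, like these genes, was highest in Met. In Met-Met against Control its difference was 0.20, while 0 of the 7 had a positive one. Within Met-Met their highest library was replicate 1 for 7 of 7. That of Ddit4 was replicate 3 (18.6 scaled FPKM), with replicate 1 next (16.2). The part of glucocorticoids in the level of Ddit4 was not tested. The count of 6 in Met became 3 with the B cell covariate, 2 with the adipocyte covariate and 0 without the 6 libraries with lymphocyte markers, where 7 were again called lower in Met-Met than in Met.

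Of 8 hypoxia-induced genes, 3 rose and 2 fell in Met, 3 rose and 1 fell in Met-Met, and 1 was lower in Met-Met than in Met. Pgk1, a glycolytic enzyme gene, rose by 0.58 in Met and 0.79 in Met-Met, and Egln3 rose by 0.66 and 0.44, the latter a call lost without Control 1, 2 or 3 or Met-Met 1 or 2. Pdk1, another hypoxia-induced gene, fell by 0.46 in Met (adjusted p = 0.00768). Of 11 p53 targets, 2 rose in Met, 1 rose in Met-Met and 2 were lower in Met-Met than in Met. The shares of all genes called in these directions were 13.3%, 10.6% and 5.93%. Ccng1 rose by 0.57 and 0.51, and Fas rose by 0.66 in Met and was lower in Met-Met than in Met by -0.93 (adjusted p = 0.00632). The count of 2 lower p53 targets became 1 without Met 1, Met 3, Met-Met 2 or Met-Met 4, and the count of 2 fallen hypoxia genes in Met became 1 without Control 1, Control 4 or any of Met 1, 2 and 3. Of 10 immediate early genes, a class that includes genes induced by handling of tissue, 0 rose and 1 fell in Met (limma; at an unadjusted p under 0.05, 0 and 2), and 1 was higher in Met-Met than in Met. That gene was Egr2, at 1.35 ± 0.16, 0.428 ± 0.293 and 1.26 ± 0.35 scaled FPKM. Without Met 4, 3 immediate early genes fell in Met and 2 were higher in Met-Met than in Met, without Control 4, 2 fell in Met, and without Met 3, 0 were higher in Met-Met than in Met.

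**Figure D5:**
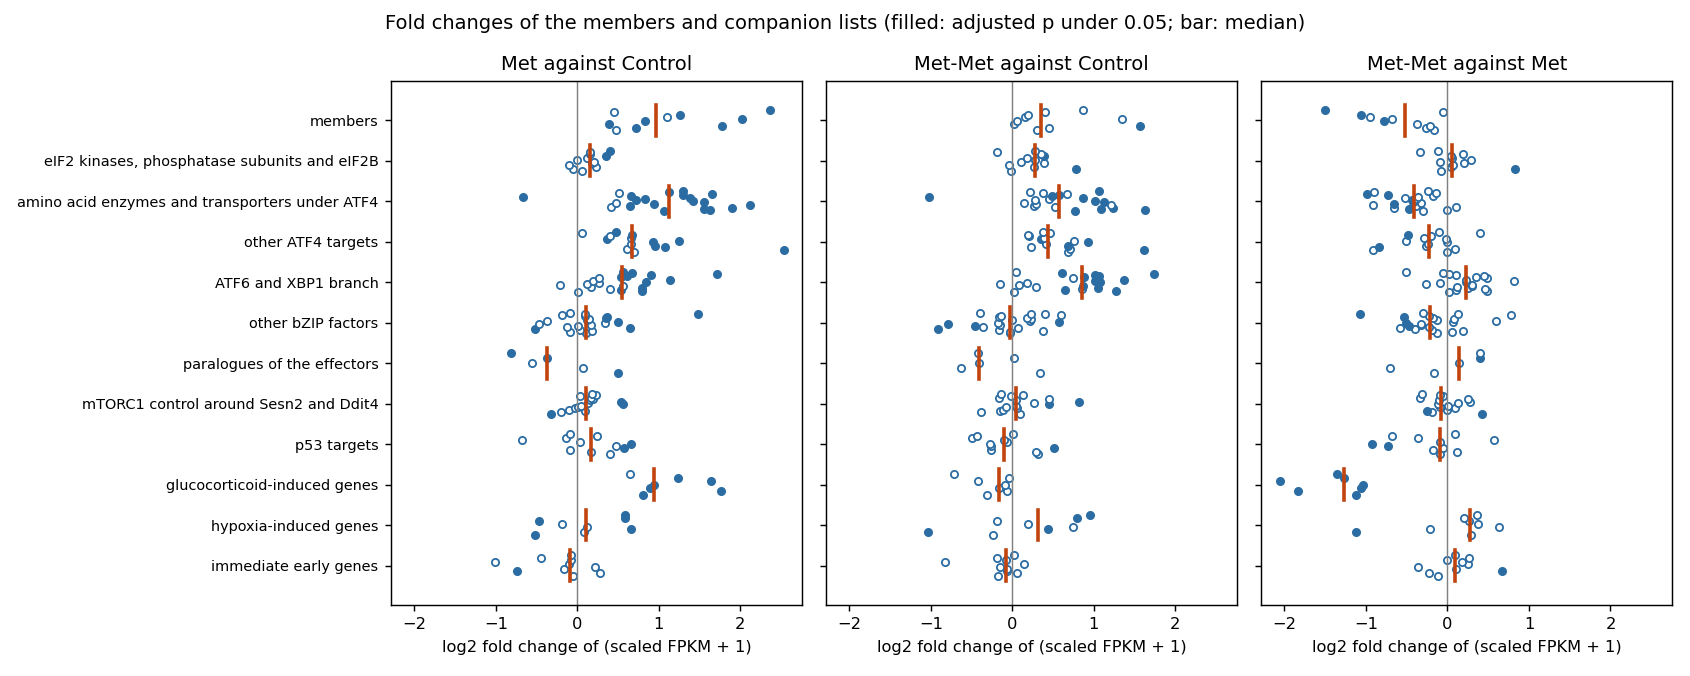
Log2 fold change of scaled FPKM plus 1 (horizontal axis) of each tested gene of the members and 11 companion lists in the 3 comparisons; points are genes, filled where the adjusted p is under 0.05, and upright bars are list medians. The medians of the members, the amino acid genes, the other ATF4 targets and the glucocorticoid-induced genes lie right of 0 in Met against Control and left of 0 in Met-Met against Met, whereas that of the ATF6 and XBP1 branch lies at 0.23 in Met-Met against Met.

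Markers of some other cell types moved with the groups as well. Fibroblast and matrix markers (8 genes) averaged 6.50 to 6.90 log2 units in Control, 5.61 to 5.84 in Met and 6.17 to 6.75 in Met-Met, and myoepithelial markers (7 genes) averaged 5.49 to 5.66, 5.08 to 5.29 and 5.58 to 5.69. Both were lower in every Met library than in every other library, the reverse of the order of Cebpg, Trib3 and Ddit4. Erythrocyte markers (5 genes) averaged 4.80 to 6.42 in Control, 3.25 to 4.12 in Met and 1.54 to 3.95 in Met-Met. Macrophage markers (7 genes) averaged 3.87 to 4.20, 3.47 to 3.77 and 3.76 to 4.14, with Met-Met overlapping both other groups. Their sums overlapped between all groups, at 127 to 179 scaled FPKM in Control, 97.9 to 198 in Met and 134 to 173 in Met-Met. The part of fibroblasts, myoepithelium, erythrocytes and macrophages in the results was not tested.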

How the data were processed

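RNA of 12 libraries was measured by sequencing, as 1 table per library. The deposited values are FPKM per transcript that the authors calculated (55869 transcripts, 21956 genes). Per the submitters' processing notes the tools were StringTie 1.3.1, HISAT2 2.0.4 and Bowtie2 2.2.8, and the builds mm9 and GRCm38 were named, with no role given for any. Per the labels' protocols TRIzol was used for RNA extraction. FPKM were summed per gene, and genes averaging 1 or more were kept. A divisor per library, 0.832 to 1.22, was the median over genes of the ratio to their geometric mean. The fit used log2(value + 1), the 3 group means, all 12 libraries and the trend option of limma 3.58.1, run under R 4.3.3. The pseudocount of 1 understates the fold changes of genes at low levels. Python 3.11.15 (pandas 2.3.3, numpy 2.4.6, matplotlib 3.10.9) served for tables and figures, and the fit was tested on simulated data. The depth behind the values is unknown, so no counting interval is given. Of the list genes, 3 had no row in the tables used.

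Named were all members, per list the 3 called genes with the smallest p in Met against Control, and the 3 genes nearest in profile to Trib3, Chac1 and Atf5. Slc1a5, Eif2ak2 and Eif2ak4 were chosen after their values were seen. Members, lists and alternatives were chosen with earlier results of these data known. The alternatives were FPKM as deposited, quantile normalization, other pseudocounts (0.1 and 0.5), other filters (none, or means from 5 FPKM up), 8 libraries alone, quality weights, no trend, a replicate block, marker covariates, 1 transcript per gene, and leaving out libraries. Promoter sequences are from RefSeq. Gm26917 was read from the deposited FPKM of annotated lncRNAs, and assembled lncRNAs were not used here.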

Additional observations from a re-analysis of the deposited data

Results flagged for a closer look

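In 9 of 135 groups of 4 libraries, 1 library stood apart by more than Dixon's 95% critical value for its gap to the nearest other library over the whole range. Chance gives this in about 1 in 20 groups, and genes that share libraries are not independent. Of 30 groups of the members, 5 were among them. Met 4 stood apart for Chac1 (55.4 scaled FPKM) and Ddit4 (49.9), and Met-Met 3 for Atf5 (110.5) and Trib3 (17.8), while Control 4 stood apart for Atf3 (3.97). Met-Met 3 also stood apart for Mthfd2 (22.8) and Chac2 (4.43), and Met-Met 1 for Canx (204.6) and Tsc22d3 (51.2). All 9 were the highest of their group.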

How the results depend on the processing

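Across 27 alternatives per value (26 for Atf3, which falls under a mean of 5 FPKM), the count of members called higher in Met against Control was 7 and became 4 with the B cell covariate, 1 with the adipocyte covariate and 0 without the 6 libraries with lymphocyte markers, with 4 to 8 when 1 library was left out. In Met-Met against Control the count of 1 became 3 with library quality weights, 2 with the B cell covariate and 0 with the adipocyte covariate or without the 6 libraries, with 1 to 2 when 1 library was left out. The 3 lower in Met-Met against Met became 1 without the 3 libraries with high Gm26917, with 3 to 4 when 1 library was left out. With the replicate number as a replicate block the counts were 5, 1 and 3. Of all genes, 1126 then rose in Met, 861 rose in Met-Met, and 406 were lower in Met-Met than in Met. With library quality weights 2000 of all genes rose in Met-Met against Control, against 1250 without them. When 1 library was left out, 1002 to 1737 of all genes rose in Met and 704 to 1424 rose in Met-Met. Between Met-Met and Met, 349 to 1237 were then lower in Met-Met. Counts over all genes for the marker covariates stand beside the member counts above. Same-numbered libraries had correlations of -0.408 to 0.169 between their deviations, with 1 of 12 pairs over 0.1, so the numbers were not taken to pair them. Fold changes that changed sign were 27, each of an uncalled difference. With the adipocyte covariate Atf3 was -0.051 in Met and -0.31 in Met-Met against Control, Cebpg -0.032 and Cebpb -0.013. Without the 6 libraries Atf3 was -0.10, Cebpg -0.23, Cebpb -0.17 and Trib3 -0.074 in Met-Met against Control. As deposited Cebpg was -0.066 and Cebpb -0.10 there, and Sesn2 0.10 in Met-Met against Met. With quantile normalization Cebpg was -0.023 and Cebpb -0.15, with the B cell covariate Cebpb -0.14, and with 1 transcript Ddit3 -0.10. Without the 3 libraries with high Gm26917 Sesn2 was -0.0091 in Met against Control, and Atf4 0.073, Chac1 0.14 and Sesn2 0.49 in Met-Met against Met. When 1 library was left out, the ranges in Met-Met against Control were -0.024 to 0.25 for Ddit3, -0.012 to 0.12 for Cebpg and -0.061 to 0.092 for Cebpb. In Met-Met against Met they were -0.37 to 0.047 for Atf3 and -0.27 to 0.26 for Sesn2. The cause was not tested, except that leaving out 6 libraries leaves 1 in Control. The 7 lower glucocorticoid-induced genes in Met-Met against Met numbered 6 to 7 when 1 library was left out. With unknown depth, no limit on low values such as those of Atf3 and Chac1 can be given. Of the other genes named, every call in Met against Control was lost without the 6 libraries. As deposited the calls in Met of Eif2b5 (0.057), Mafg (0.076), Ppp1r15b (0.095), Hlf (0.21), Canx (0.22), Sec13 (0.23), Ccng1 (0.27), Chac2 (0.27), Pgk1 (0.28) and Fas (0.39) were lost.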
